A study of Mus musculus with 28 samples.

Results

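The dystrophin-glycoprotein complex (DGC) was examined in the transcriptome of tibialis anterior (TA) muscle from *mfn1,2* and wt mice. Its members were taken by symbol as *Dmd*, *Utrn*, *Dag1*, *Sgca*, *Sgcb*, *Sgcd*, *Dtna* and *Sspn*, and all 8 were found among the 12732 genes of the table. The *mfn1,2* mice carried the Cre recombinase driver Myl1-Cre together with a null and a floxed allele of each mitofusin gene (Mfn1-/flox; Mfn2-/flox). Their wt littermates were Mfn1+/flox; Mfn2+/flox, with no Cre given, and the crosses that made both genotypes also carried a floxed mDendra reporter. Each genotype gave 14 libraries of total RNA, from 4 mice at each of 4, 6 and 8 weeks and 2 mice at 10 weeks of age, of both sexes. The columns of the table give genotype and a running number but no age, so all ages of a genotype were pooled. Myl1-Cre acts in fast-twitch fibers, so the other cells of *mfn1,2* muscle keep the floxed allele beside the null one. Library numbers in the text are those of the columns.

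The DGC spans the sarcolemma, the membrane of the muscle fiber. Inside the fiber, dystrophin ties the complex to the actin cytoskeleton, dystroglycan crosses the membrane and binds laminin outside, and the sarcoglycans and sarcospan brace dystroglycan. Dystrobrevin and the syntrophins form the cytoplasmic, signaling side of the complex, and loss of dystrophin or of a sarcoglycan causes muscular dystrophy. Utrophin is a close relative of dystrophin that is concentrated at the neuromuscular junction and is increased in dystrophin-deficient fibers.

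Values are normalized expression signals. For 262 genes listed at 0 in at least 8 libraries, the lowest value above 0 fell with exonic length (slope of -1.02 on log scales), as it would if values were given per length, and levels are compared between genes on that reading. Their sum over all genes was 326643 to 419290 in *mfn1,2* libraries, against 426029 to 564123 in wt libraries, and mitochondrially encoded transcripts made up 24.9 to 35.5% of it in *mfn1,2*, against 49.4 to 71.3% in wt. Libraries were therefore brought to a common scale by median-of-ratios factors, and these rescaled values are given below. Average-linkage clustering on the correlations between libraries separated the genotypes. Cut into 4 clusters, it left 5 libraries outside the larger cluster of their genotype (*mfn1,2* library 8 and wt libraries 6, 8, 9 and 13). These are the libraries said below to stand apart, and a cut finer than the genotypes always sets some apart. The targeted genes followed the labels. *Mfn1* averaged 12.9 ± 3.17 in *mfn1,2* and 53.0 ± 12.5 in wt (SD, n = 14 each), with no overlap, and *Mfn2* averaged 30.6 ± 5.03 in *mfn1,2* and 48.0 ± 4.64 in wt, although its log2 fold change of -0.66 became 0.40 when libraries were scaled to equal totals and 0.18 when scaled to *Actb*.

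None of the 8 members passed the test between genotypes (limma with Benjamini-Hochberg adjustment over 10819 tested genes, adjusted p below 0.01). Over all tested genes, 53.2% passed it, 28.2% higher and 24.9% lower in *mfn1,2*. At an unadjusted p below 0.05 the count was 6 of 8 members, against 67.0% of all genes. Members called also numbered 0 with robust variance moderation (53.1% of all genes called), pseudocounts of 1 (53.5%) and 0.01 (52.9%), no filter on low values (50.4%), a mean of at least 5 (59.8%), and the stricter rule of a Bonferroni adjusted p below 0.01 with an absolute log2 fold change over 1 (11.1%). The median log2 fold change of the members, *mfn1,2* over wt, was 0.026, against 0.026 for all tested genes, and their median absolute log2 fold change was 0.16, against 0.39 for all tested genes. No member had separate ranges in the genotypes, where 11.2% of all tested genes did (6.15% with *mfn1,2* above and 5.08% below). The summed level of the 8 members was 135 to 178 in *mfn1,2* libraries (median 167) and 142 to 187 in wt libraries (median 163). Since this is bulk tissue, fewer cells of a type and less RNA per cell cannot be told apart.

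**Figure D1:**
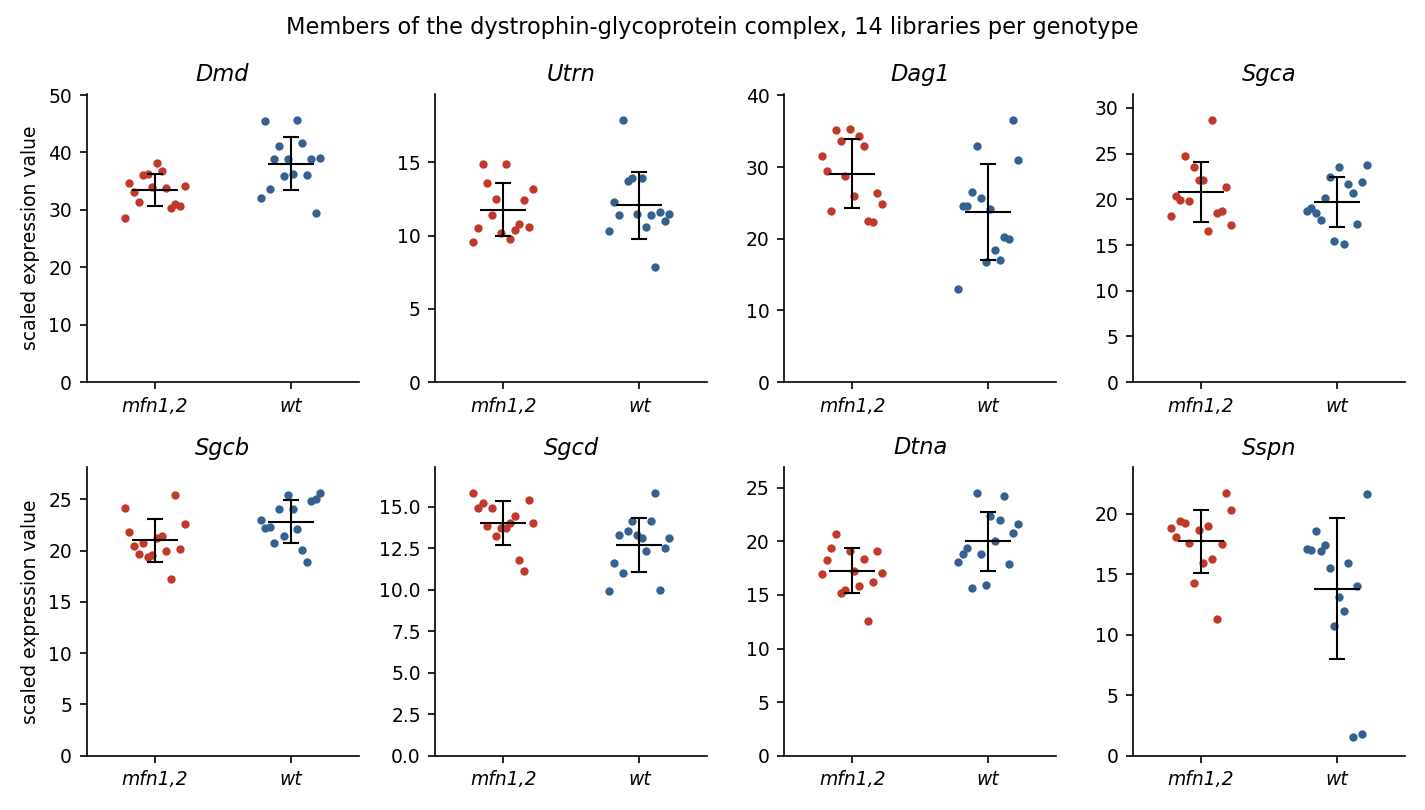
Rescaled expression values (vertical axis, from 0, no unit given) of the 8 DGC members in *mfn1,2* (left) and wt (right) libraries. Each point is 1 of 14 libraries per genotype, and bars are the mean and SD; every panel overlaps between genotypes, and 2 wt libraries lie far below the rest for *Sspn*.

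*Dmd*, which encodes dystrophin, had the highest mean level of the 8 in both genotypes. Its values were 28.6 (lowest), 33.9 (median) and 38.2 (highest) in *mfn1,2* libraries and 29.5, 38.8 and 45.7 in wt libraries. All 14 *mfn1,2* libraries lay below the wt median, but only 1 lay below the lowest wt library. The means were 33.5 ± 2.78 in *mfn1,2* and 38.05 ± 4.62 in wt (SD, n = 14 each), a log2 fold change of -0.18 (SE 0.062) with a limma adjusted p of 0.0138. Leaving out *mfn1,2* library 3 or wt library 1, 8 or 11 brought *Dmd* past the threshold, at log2 fold changes of -0.19 to -0.20.

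*Utrn*, the gene of utrophin, had the lowest mean level of the 8. It ranged from 9.55 to 14.9 in *mfn1,2* (median 11.1) and from 7.88 to 17.9 in wt (median 11.5). The *mfn1,2* range lay wholly inside the wt range. The log2 fold change was -0.028 (SE 0.091, limma adjusted p = 0.802), and its 95% interval of -0.21 to 0.16 corresponds to 0.862 to 1.12 times the wt level.

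*Dag1* encodes both dystroglycan subunits. Its values were 22.3, 29.1 and 35.3 (lowest, median and highest) in *mfn1,2* and 13.02, 24.4 and 36.6 in wt. The *mfn1,2* libraries were less dispersed, with a coefficient of variation of 16.4%, against 28.2% in wt. The 3 highest wt values, 36.6, 33.0 and 31.0 in libraries 8, 13 and 9, came from libraries that stood apart, and the other 10 wt libraries ended at 26.5. Mean levels were 29.1 ± 4.77 in *mfn1,2* and 23.7 ± 6.68 in wt (SD, n = 14 each). The log2 fold change was 0.33 (SE 0.12, limma adjusted p = 0.0207). Without the 5 libraries that stood apart, a choice made after seeing the data, it was 0.49 (limma adjusted p = 0.000868). That was past a threshold that 50.5% of all genes then passed. *Dag1* was also past it without wt library 8 alone (0.38) or 13 alone (0.37).

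The sarcoglycans are single-pass membrane proteins that assemble with one another before they join dystroglycan. *Sgca* (α-sarcoglycan) was 16.5 to 28.7 in *mfn1,2* (median 20.2) and 15.1 to 23.7 in wt (median 19.5). Its log2 fold change was 0.079 (SE 0.081, limma adjusted p = 0.404). *Sgcb* (β-sarcoglycan) was 17.2 to 25.4 in *mfn1,2* (median 20.6) and 18.9 to 25.6 in wt (median 22.6), a log2 fold change of -0.12 (SE 0.058, limma adjusted p = 0.0663). Only 2 *mfn1,2* libraries exceeded the wt median for *Sgcb*. *Sgcd* (δ-sarcoglycan) had levels of 11.1 to 15.8 in *mfn1,2* (mean 13.99) and 9.89 to 15.8 in wt (mean 12.7). Its log2 fold change was 0.14 (SE 0.067, limma adjusted p = 0.0613), with 12 of 14 *mfn1,2* libraries above the wt median. The 95% interval of the fold, *mfn1,2* over wt, was 0.942 to 1.19 for *Sgca*, 0.847 to 0.998 for *Sgcb* and 1.005 to 1.22 for *Sgcd*.

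*Dtna* encodes α-dystrobrevin, a cytoplasmic relative of dystrophin that binds it directly. It was 12.6, 17.1 and 20.7 (lowest, median and highest) in *mfn1,2* and 15.7, 19.7 and 24.5 in wt. In *mfn1,2*, 13 of 14 libraries lay below the wt median and 3 below the lowest wt library. The log2 fold change was -0.21 (SE 0.074, limma adjusted p = 0.0157). It passed the threshold without *mfn1,2* library 12 (-0.23) or wt library 2 or 12 (both -0.24). Without the 5 libraries that stood apart, 4 of them wt libraries with *Dtna* of 20.8 to 24.5, it was -0.14 (limma adjusted p = 0.105).

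*Sspn* encodes sarcospan, a protein with several membrane passes that sits with the sarcoglycans. Values were 11.3, 18.4 and 21.7 (lowest, median and highest) in *mfn1,2* and 1.55, 15.7 and 21.6 in wt, where libraries 6 and 8 had 1.55 and 1.83 and each of the other 12 had at least 10.7. Of the 10819 tested genes, *Sspn* was the single one that in both of these libraries was below 25% of its value in each of the other 26 libraries. The log2 fold change was 0.62 (SE 0.30, limma adjusted p = 0.0712) with all libraries and 0.17 (SE 0.0996, limma adjusted p = 0.14) without those 2. Leaving them out put *Dag1* (0.37) and *Dmd* (-0.21) past the threshold, where 51.2% of all genes were called.

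**Figure D2:**
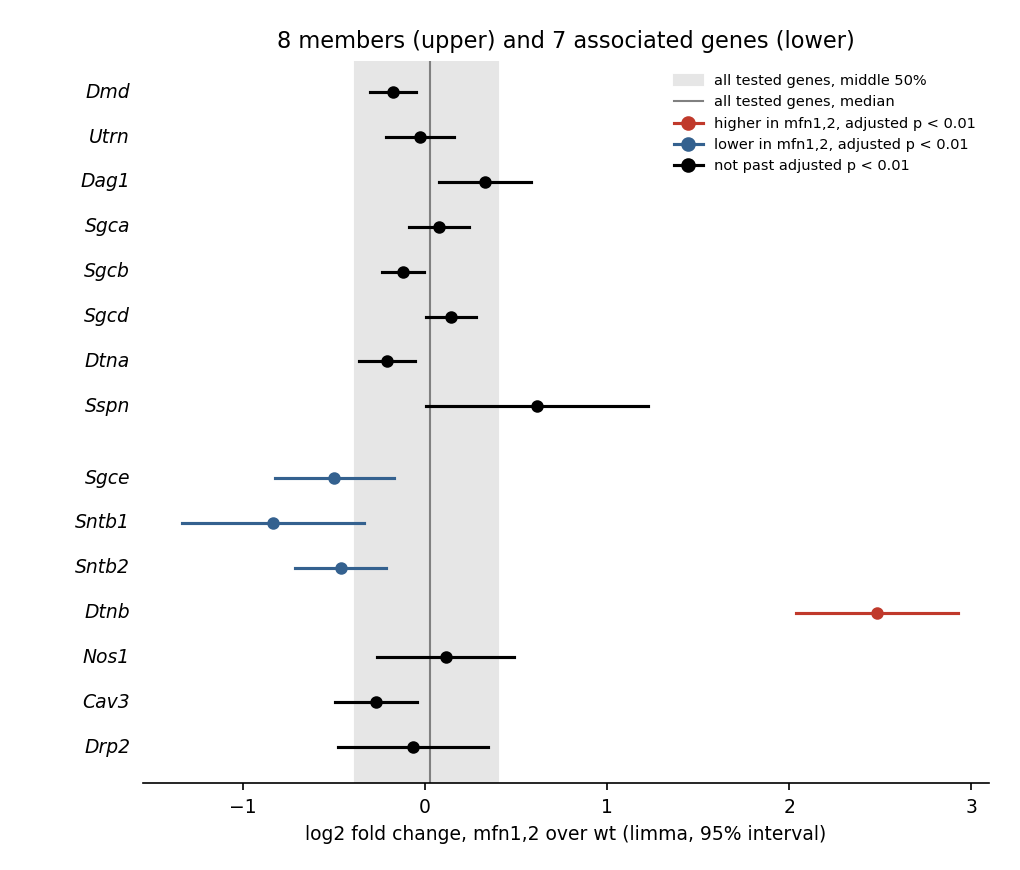
Log2 fold changes, *mfn1,2* over wt, with 95% intervals from limma (horizontal axis) for the 8 members (upper) and 7 associated genes (lower). The line and band are the median and the middle 50% of all tested genes; no member passes the threshold, while *Dtnb* lies far to the right at 2.48 and *Sntb1* to the left at -0.84.

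Because the fold changes are relative, they were set against 6 scalings of the libraries. The median log2 fold change of all genes was 0.026 with the median of ratios, -0.041 with the upper quartile, 0.16 with equal totals of nuclear-encoded genes, 0.64 with values as deposited, 0.83 with scaling to *Actb* and 1.04 with equal totals. Calls among the members followed it. The upper quartile called *Dmd*, *Sgcb* and *Dtna* lower, where 3042 of 10832 genes fell and 52.5% were called in either direction. Equal nuclear totals called only *Dag1* higher, where 3784 of 10839 genes rose and 51.5% were called in either direction. Values as deposited called 7 members higher, where 62.3% of all genes rose and 67.2% were called in either direction. All 8 were called higher with *Actb* (7152 of 10877 genes rose, 69.1% called) or equal totals (8649 of 10930 rose, 81.7% called). *Actb* itself differed, averaging 43.7 ± 9.62 in *mfn1,2* and 83.5 ± 42.6 in wt with the median of ratios (SD, n = 14 each). Its log2 fold change of -0.83 (limma adjusted p = 6.75e-05) raises every *mfn1,2* value that is scaled to it. A scaling shifts all genes of a library by 1 factor, so the distance of a member from the median of all genes is fixed by construction, apart from the pseudocount and the filter, and its small range across scalings is no sign of stability. This distance was -0.20 to -0.16 for *Dmd*, -0.054 to -0.018 for *Utrn*, 0.30 to 0.35 for *Dag1* and -0.24 to -0.20 for *Dtna*. It was 0.053 to 0.093 for *Sgca*, -0.15 to -0.11 for *Sgcb*, 0.12 to 0.16 for *Sgcd* and 0.59 to 0.63 for *Sspn*.

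**Figure D3:**
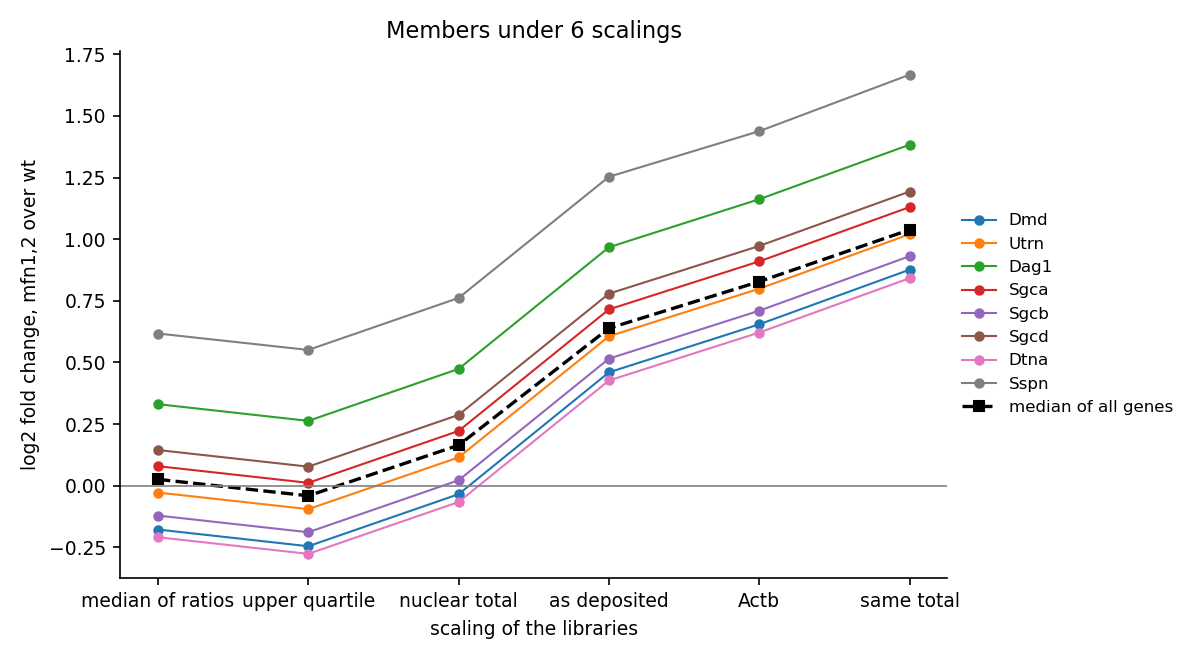
Log2 fold change of each DGC member, *mfn1,2* over wt (vertical axis), under 6 scalings of the libraries (horizontal axis), with the median of all tested genes dashed. By construction the members move in parallel with that median, which goes from -0.041 with the upper quartile to 1.04 with equal totals.

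Ratios between members within a library do not depend on the scaling apart from the pseudocount, and 6 were fixed and compared with two-sided permutation tests of 100000 resamples. *Dag1* over *Dmd* was the 1 that differed past an adjusted p of 0.01. The ratio was 0.678, 0.855 and 1.12 (lowest, median and highest) in *mfn1,2* and 0.403, 0.615 and 1.24 in wt, with all 14 *mfn1,2* libraries above the wt median. The difference of the mean log2 ratios was 0.51 (SE 0.14, permutation p = 0.00163, adjusted over the 6 ratios p = 0.00978). That margin was narrow: without 1 library the adjusted permutation p ran from 0.00036 to 0.0171 and stayed below 0.01 in 11 of 28 cases. It was above 0.01 without *mfn1,2* library 1, 2, 4, 5, 8, 10, 12, 13 or 14, or wt library 1, 2, 3, 4, 5, 6, 7 or 10, and the difference was then 0.46 to 0.52. Without the 5 libraries that stood apart the difference was 0.68 (permutation p = 1e-05, the smallest these resamples can give). That set was left out after seeing the data, and it holds wt libraries 8, 9 and 13, the highest of wt in *Dag1*.

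The other 5 ratios did not pass. *Utrn* over *Dmd* had a median of 0.345 in *mfn1,2* and 0.31 in wt, a log2 difference of 0.15 (SE 0.097, permutation p adjusted over 6 = 0.202). *Dtna* over *Dmd* had medians of 0.525 in *mfn1,2* and 0.541 in wt, a difference of -0.031 (SE 0.093). Among the membrane members, *Sgcb* over *Sgca* had medians of 0.995 in *mfn1,2* and 1.17 in wt (difference -0.20, SE 0.10, permutation p adjusted over 6 = 0.192), and 4 *mfn1,2* libraries fell below the lowest wt ratio. *Sgcd* over *Sgca* differed by 0.065 (SE 0.088). *Sspn* over *Sgca* differed by 0.54 (SE 0.34) with all libraries and by 0.070 (SE 0.11) without the 2 wt libraries low in *Sspn*.

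**Figure D4:**
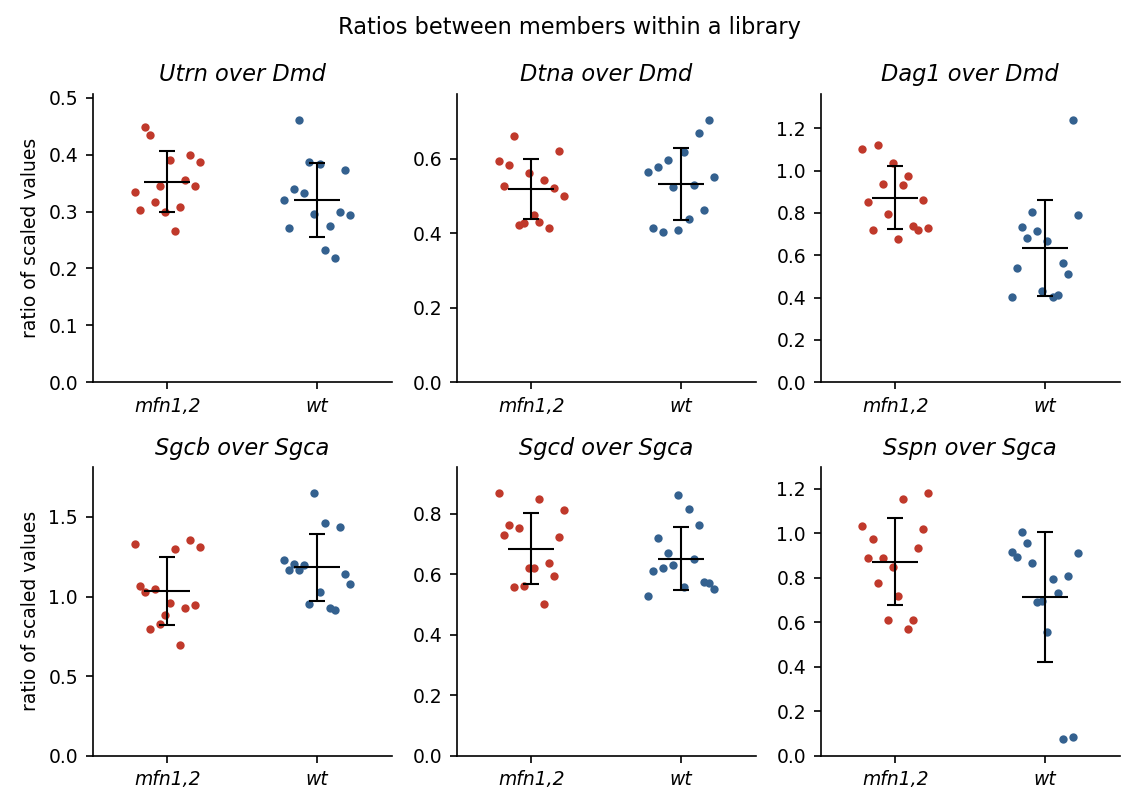
Ratios of the rescaled values of 2 members within a library (vertical axis, from 0) in *mfn1,2* (left) and wt (right), with each library as a point and the mean and SD as bars. For *Dag1* over *Dmd* all 14 *mfn1,2* points lie above the wt median of 0.615, and for *Sspn* over *Sgca* 2 wt points lie near 0.

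As shares of the summed level of the 8 members, *Dmd* was 20.3 ± 1.69% in *mfn1,2* and 23.4 ± 2.90% in wt, and *Dag1* was 17.6 ± 2.24% in *mfn1,2* and 14.4 ± 3.45% in wt (SD, n = 14 each). The order of mean levels was *Dmd*, *Dag1*, *Sgcb*, *Sgca*, *Sspn*, *Dtna*, *Sgcd* and *Utrn* in *mfn1,2*, and *Dmd*, *Dag1*, *Sgcb*, *Dtna*, *Sgca*, *Sspn*, *Sgcd* and *Utrn* in wt. Some neighbours in these orders were not separated by their spread. *Sgcb* exceeded *Sgca* in 7 of 14 *mfn1,2* libraries, *Dtna* exceeded *Sgca* in 7 of 14 wt libraries, and *Sgcd* exceeded *Utrn* in 8 of 14 wt libraries. *Dmd* exceeded *Dag1* in 11 of 14 *mfn1,2* and 13 of 14 wt libraries.

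Within a genotype, 3 pairs of members were also followed across the 14 libraries. None of the 6 correlations passed a permutation test, the largest in size being *Sgcb* with *Sgcd* in wt (Pearson r = -0.34, permutation p = 0.238; Spearman rho = -0.30, permutation p = 0.301; adjusted over the 6, 0.805 and 0.534; r = -0.15 without the 2 libraries farthest from the median of *Sgcb*). With values as deposited, which keep the scale of each library, the same pair gave r = 0.81 (permutation p = 0.00052). Whether members moved together across libraries thus depended on the scaling.

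To show what lies upstream of the genes that these comparisons turn on, the windows from 250 bases before to 50 bases after a transcription start are given for *Dmd*, for *Dag1*, its partner in the ratio that differed, and for *Dtnb*, the associated gene with the largest change. RefSeq gave 2 windows for *Dmd*, 2 for *Dag1* and 4 for *Dtnb*, and the 1 farthest upstream is shown for each. Sequences are from RefSeq (GRCm38.p6) and are not measurements of these samples. Capitals mark 2 motifs searched on both strands, the E-box CANNTG, a form bound by myogenic factors such as MyoD, and the GC box GGGCGG, bound by Sp1. No match of one overlapped a match of the other. Of 32851 windows of the same length, 72.3% held the E-box and 35.7% the GC box.
Dmd, chrX:82948620-82948919, plus strand: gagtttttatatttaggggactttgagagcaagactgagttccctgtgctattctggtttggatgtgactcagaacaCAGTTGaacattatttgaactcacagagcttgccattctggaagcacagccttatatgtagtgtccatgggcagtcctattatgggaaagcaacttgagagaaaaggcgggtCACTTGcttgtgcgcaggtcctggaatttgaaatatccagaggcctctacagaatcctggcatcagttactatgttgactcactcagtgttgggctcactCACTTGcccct
Dag1, chr9:108263909-108264208, minus strand: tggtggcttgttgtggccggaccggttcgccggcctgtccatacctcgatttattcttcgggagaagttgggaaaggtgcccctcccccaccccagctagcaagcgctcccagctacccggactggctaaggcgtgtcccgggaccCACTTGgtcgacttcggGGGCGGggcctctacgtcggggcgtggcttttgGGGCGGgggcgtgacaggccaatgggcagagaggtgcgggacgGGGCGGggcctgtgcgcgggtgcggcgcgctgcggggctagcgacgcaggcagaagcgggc
Dtnb, chr12:3572141-3572440, plus strand: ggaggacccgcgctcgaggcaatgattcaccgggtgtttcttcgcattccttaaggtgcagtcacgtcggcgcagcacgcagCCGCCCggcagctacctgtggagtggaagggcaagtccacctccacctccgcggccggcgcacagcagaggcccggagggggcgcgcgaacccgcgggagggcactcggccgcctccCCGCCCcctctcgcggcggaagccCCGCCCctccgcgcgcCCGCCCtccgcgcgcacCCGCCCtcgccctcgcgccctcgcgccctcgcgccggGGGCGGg
The *Dmd* window held 3 E-boxes and 0 GC boxes, the *Dag1* window 1 E-box and 3 GC boxes, and the *Dtnb* window 0 E-boxes and 6 GC boxes. The windows of a gene differed, since over all of them an E-box was in 1 of 2 for *Dmd*, 2 of 2 for *Dag1* and 2 of 4 for *Dtnb*, and a GC box in 1 of 2 for *Dmd*, 2 of 2 for *Dag1* and 3 of 4 for *Dtnb*. These matches describe the letters of the windows only.

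Beyond the 8 members, 7 further genes of the complex or its partners were compared, and 4 of them were called (1 rose and 3 fell in *mfn1,2*), against 53.2% of all tested genes. *Dtnb*, the gene of β-dystrobrevin, was the 1 that rose. It had 1.23, 3.46 and 7.28 (lowest, median and highest) in *mfn1,2* libraries and 0.144, 0.456 and 1.11 in wt libraries. Every *mfn1,2* library exceeded every wt library, as was so for 6.15% of all tested genes. Means were 3.41 ± 1.41 in *mfn1,2* and 0.534 ± 0.271 in wt (SD, n = 14 each), a log2 fold change of 2.48 (SE 0.22, limma adjusted p = 3.47e-11) on the log2(value + 0.1) scale, a rise larger than that of 97.7% of tested genes in absolute size. It was called higher under all 6 scalings, at 2.42 to 3.38. A scaling shifts all genes of a library by 1 factor, so that count is no sign of stability. The size of the *Dtnb* change followed the pseudocount, at 1.48 with a pseudocount of 1 and 2.71 with 0.01. With a mean of at least 5 *Dtnb* was not tested. As a share of its paralog *Dtna* in the same library, *Dtnb* was 6.43 to 46.8% in *mfn1,2* (median 18.8%) and 0.717 to 6.15% in wt (median 2.33%).

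The syntrophins are adaptors that dock signaling proteins on dystrophin and dystrobrevin. *Sntb1* (β1-syntrophin) was 0.399 to 4.67 in *mfn1,2* (median 1.44) and 1.43 to 3.74 in wt (median 2.39), a log2 fold change of -0.84 (SE 0.24, limma adjusted p = 0.00385), with *mfn1,2* library 8 the highest of all 28. *Sntb2* (β2-syntrophin) was 0.967 to 2.14 in *mfn1,2* and 1.41 to 3.23 in wt, a log2 fold change of -0.46 (SE 0.12, limma adjusted p = 0.00146). *Sntb1* and *Sntb2* were called lower with the median of ratios and the upper quartile only, and under equal totals *Sntb2* was called higher (0.53).

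**Figure D5:**
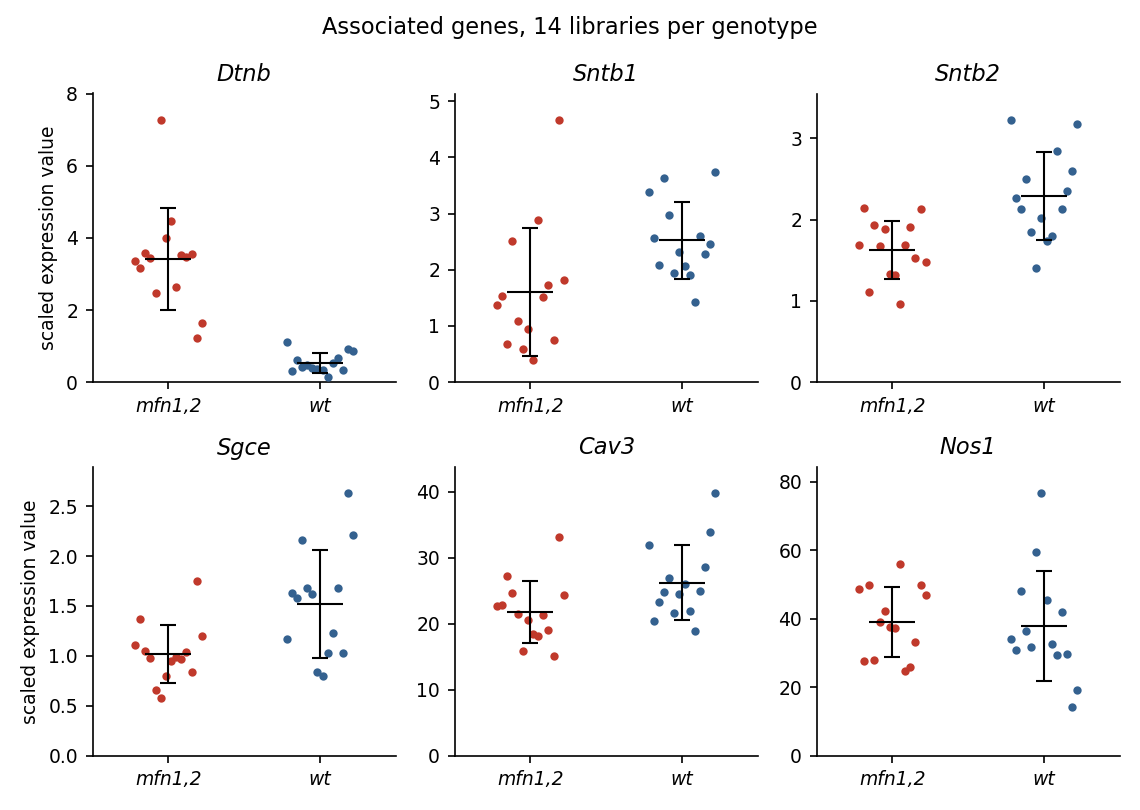
Rescaled expression values (vertical axis, from 0) of 6 associated genes in *mfn1,2* (left) and wt (right), each point a library, bars the mean and SD. *Dtnb* shows no overlap between genotypes, while the ranges of the other 5 genes overlap.

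*Sgce* (ε-sarcoglycan, a broadly expressed relative of α-sarcoglycan) averaged 1.02 ± 0.294 in *mfn1,2* and 1.52 ± 0.545 in wt, a log2 fold change of -0.50 (SE 0.16, limma adjusted p = 0.00764). The call was lost without *mfn1,2* library 2, 3, 4, 5, 7, 12, 13 or 14, or wt library 6, 8, 9, 10, 11, 12, 13 or 14, at -0.43 to -0.50, and it held under 2 of the 6 scalings. *Cav3*, the caveolin of muscle, averaged 21.8 ± 4.75 in *mfn1,2* and 26.3 ± 5.72 in wt (log2 fold change -0.27, limma adjusted p = 0.0335), and it passed without *mfn1,2* library 8 (-0.32). *Nos1*, the neuronal nitric oxide synthase that docks at the complex, averaged 39.1 ± 10.3 in *mfn1,2* and 37.9 ± 15.97 in wt. *Drp2*, a further dystrophin relative, averaged 0.66 ± 0.288 in *mfn1,2* and 0.719 ± 0.377 in wt. Neither gene passed with the median of ratios. Of the 6 scalings, 3 called *Nos1* higher (as deposited, *Actb* and equal totals). *Cav3* and *Drp2* were called higher under 2 (*Actb* and equal totals). Those scalings called 67.2%, 69.1% and 81.7% of all genes, in the order given for *Nos1*.

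Genes that act on or beside the complex were counted in the same way, and each count reads against 28.2% of all tested genes that rose, 24.9% that fell and 53.2% called in either direction. Of 15 compared enzymes that build the laminin-binding glycan of dystroglycan, 3 rose and 3 fell. *Ispd*, which makes CDP-ribitol for that glycan, rose by a log2 fold change of 0.64 (SE 0.11), and *Pomgnt2*, which extends the O-mannose core, had a log2 fold change of -0.77 (SE 0.10). Of 9 extracellular ligands, 1 rose and 6 fell. *Bgn* (biglycan) and *Hspg2* (perlecan) had log2 fold changes of -1.06 (SE 0.20) and -1.01 (SE 0.14), while *Lamb2*, a laminin chain concentrated at synapses, had 0.19 (SE 0.056, limma adjusted p = 0.00482). *Lamb2* was not called with the upper quartile (0.12), without wt library 3 (0.17) or without the 5 libraries that stood apart (0.20).

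Integrins and their linkers join the DGC at the costamere, the rib-like site where fibers attach to the matrix. Of 12 integrin-linked genes, 1 rose and 5 fell, a share called near that of all tested genes (53.2%). *Itga7*, the integrin α chain of the mature fiber, averaged 12.4 ± 1.41 in *mfn1,2* and 8.29 ± 1.20 in wt, a log2 fold change of 0.57 (SE 0.072). *Fermt2* (kindlin-2) averaged 34.4 ± 4.66 in *mfn1,2* and 66.3 ± 12.6 in wt, with no overlap, and *Vcl* (vinculin) 8.81 ± 1.97 in *mfn1,2* and 16.6 ± 4.66 in wt. Of 8 cytoskeletal linkers, 2 rose and 2 fell. *Flnc* (filamin C, which binds sarcoglycans) rose by a log2 fold change of 1.09 (SE 0.17), and *Synm* (synemin, which binds dystrophin and α-dystrobrevin) had a log2 fold change of -1.51 (SE 0.22). Of 10 tested genes of membrane repair and caveolae, 2 rose and 6 fell. *Capn3* (calpain 3) and *Ano5* (anoctamin 5) had log2 fold changes of -1.37 (SE 0.074) and -1.26 (SE 0.092), both without overlap (11.2% of all tested genes had none), and *Dysf* (dysferlin) had 0.53 (SE 0.11).

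Among 5 tested genes of fiber regeneration, 3 rose and 1 fell. *Myh8*, the perinatal myosin, had 208, 279 and 495 (lowest, median and highest) in *mfn1,2* libraries and 0, 0.323 and 252 in wt libraries, 4 of which were listed at 0, a log2 fold change of 7.77 (SE 1.04) on the log2(value + 0.1) scale. *Myod1*, a myogenic transcription factor, averaged 1.15 ± 0.319 in *mfn1,2* and 4.87 ± 1.401 in wt without overlap. Of all tested genes, 5.08% had *mfn1,2* below wt without overlap. The falls counted in these neighbouring lists depended on the scaling. With values as deposited, where 62.3% of all genes rose and 4.95% fell, 11 of 15 glycan enzymes, 2 of 9 ligands and 3 of 12 integrin-linked genes rose and 0 fell, while 6 of 8 cytoskeletal linkers rose and 1 fell, 4 of 10 repair genes rose and 2 fell, and 4 regeneration genes rose and 1 fell.

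Markers of the cells in the tissue were counted against the same shares of all tested genes (28.2% rose and 24.9% fell). Of 9 myofiber markers 1 rose and 6 fell, with a summed level of 21600 to 36100 in *mfn1,2* libraries and 25600 to 57900 in wt libraries. Of 6 endothelial markers 5 fell, with sums of 32.6 to 48.2 in *mfn1,2* and 52.3 to 93.2 in wt. Of 6 fibroblast markers 2 fell (79.2 to 720 in *mfn1,2*, 174 to 1420 in wt). Of 5 tested macrophage markers 4 fell (6 markers summed, 5.35 to 19.3 in *mfn1,2*, 8.00 to 25.1 in wt). Of 6 smooth muscle and pericyte markers 3 fell (83.6 to 121 in *mfn1,2*, 110 to 166 in wt). Of 5 tested Schwann cell markers 1 rose (6 markers summed, 11.4 to 60.1 in *mfn1,2*, 7.53 to 49.7 in wt). The 1 tested satellite cell marker rose (2 markers summed, 1.94 to 3.45 in *mfn1,2*, 1.56 to 3.22 in wt). The other, *Pax7*, was below the filter on low values. It averaged 0.201 ± 0.106 in *mfn1,2* and 0.413 ± 0.136 in wt (SD, n = 14 each). Without that filter 1 of the 2 satellite cell markers rose and 1 fell, where 50.4% of all genes were called. For adipocytes, 0 of 3 markers were called (limma, 0 at an unadjusted p below 0.05), with sums of 0.176 to 5.99 in *mfn1,2* and 0 to 5.05 in wt. No marker was at 0 in all libraries of a genotype. With values as deposited, the shares to read against are 62.3% of all genes that rose and 4.95% that fell. The 5 tested macrophage markers then gave 0 calls in either direction (limma, 1 at an unadjusted p below 0.05) and the endothelial markers 1 higher and 0 lower. Under that scaling 3 myofiber markers were higher and 4 lower. Higher, with none lower, were 1 fibroblast marker, 1 smooth muscle and pericyte marker, 2 Schwann cell markers and the tested satellite cell marker. No adipocyte marker was called (limma, 1 at an unadjusted p below 0.05). The part of these markers in the differences above was not tested.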

How the data were processed

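RNA of TA muscle from 14 *mfn1,2* and 14 wt mice was sequenced by the authors (stranded total RNA kit, single-end reads). The submitters' notes name Trim Galore, HISAT2, featureCounts, DESeq2 and the genome build mm9. The deposited table holds, for each gene in each library, an expression signal that the authors had normalized. Its unit is not stated, its values above 0 are not whole (100% of them), and whole reads could not be recovered, so a test on log values replaced the authors' DESeq2 and the depth behind each value is unknown.

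Libraries were assigned to a genotype by column name. Values were scaled by the median of ratios over 11693 genes above 0 in every library, genes with a mean of at least 0.5 were kept (10819 of 12732), and log2(value + 0.1) was compared with limma 3.58.1 in R 4.3.3 (trended eBayes, two-sided, all 28 libraries, genotype as the only term). Fold changes of low genes are understated on that scale. A gene was called at a Benjamini-Hochberg adjusted p below 0.01. Ratios and correlations were tested by permutation with 100000 resamples in numpy 2.4.6, and the p-values of the ratios were adjusted in scipy 1.17.1. Promoter windows were looked up by symbol in RefSeq, where 7 members and Dtnb matched. The scaling and the limma fit were tested on simulated data in which far fewer genes differed than were called here. The other steps were not part of that test.

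The members and gene lists were chosen with earlier results of these data known. Some genes of the lists are not reported here and were left out of the counts. Named genes are the 8 members, the 2 targeted genes, all associated genes of the list and, in each other list, genes among the 4 called with the largest change or the largest called change against them. *Actb*, used as a scale, and *Pax7*, a marker below the filter, are also named. The mice are separate animals, but no other column links libraries, so the p-values measure the spread between animals of pooled ages. As alternatives, 5 other scalings, robust eBayes, pseudocounts of 1 and 0.01, a minimum mean of 5 or none, a stricter rule (Bonferroni adjusted p below 0.01 and absolute log2 fold change over 1) and leaving out each library were tried.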

Additional observations from a re-analysis of the deposited data

How the results depend on the processing

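No paired analysis was possible because nothing in the labels ties the running numbers of the columns to a replicate, an age or a litter. Depth is unknown, so the counting error of low genes such as *Dtnb* in wt cannot be given. The alternatives without the 5 libraries that stood apart and without the 2 wt libraries low in *Sspn* were chosen after seeing the data. With the median of ratios, 3055 genes rose and 2696 fell. With values as deposited, 6770 genes rose and 538 fell, 7 members rose, the log2 fold change was 0.46 for *Dmd*, 0.61 for *Utrn*, 0.52 for *Sgcb*, 0.43 for *Dtna*, 0.080 for *Sgce*, 0.14 for *Sntb2*, 0.37 for *Cav3*, 0.46 for *Drp2*, and r was 0.77 for Dmd with Dag1 in *mfn1,2*, 0.63 for Sgcb with Sgcd in *mfn1,2*, 0.66 for Dmd with Utrn in wt, 0.70 for Dmd with Dag1 in wt, 0.81 for Sgcb with Sgcd in wt. With equal totals, 8649 genes rose and 284 fell, 8 members rose, and the log2 fold change was 0.40 for *Mfn2*, 0.88 for *Dmd*, 1.02 for *Utrn*, 0.93 for *Sgcb*, 0.84 for *Dtna*, 0.46 for *Sgce*, 0.16 for *Sntb1*, 0.53 for *Sntb2*, 0.78 for *Cav3*, 0.80 for *Drp2*, 0.19 for *Pomgnt2*, 0.033 for *Hspg2*, 0.12 for *Fermt2*, 0.17 for *Vcl*. With Actb as the scale, 7152 genes rose and 366 fell, 8 members rose, and the log2 fold change was 0.18 for *Mfn2*, 0.65 for *Dmd*, 0.80 for *Utrn*, 0.71 for *Sgcb*, 0.62 for *Dtna*, 0.27 for *Sgce*, 0.33 for *Sntb2*, 0.56 for *Cav3*, 0.65 for *Drp2*. With a mean of at least 5, 1719 genes rose and 1155 fell. With the Bonferroni and fold rule, 651 genes rose and 554 fell. With equal nuclear totals, 1 member rose, where 51.5% of all genes were called. The log2 fold change was then 0.11 for *Utrn*, 0.022 for *Sgcb*, 0.047 for *Drp2*, and r was 0.52 for Dmd with Dag1 in wt, 0.66 for Sgcb with Sgcd in wt. Without the 5 libraries that stood apart, 1 member rose, where 50.5% of all genes were called. The log2 fold change was then -0.12 for *Nos1*, 0.11 for *Drp2*, the log2 difference of Dtna over Dmd was 0.051, and r was -0.013 for Dmd with Utrn in wt, 0.12 for Dmd with Dag1 in wt. Without the 2 wt libraries low in *Sspn*, 1 member rose and 1 fell, where 51.2% of all genes were called. The log2 fold change was then 0.049 for *Drp2*, and the log2 difference of Dtna over Dmd was 0.034. With the upper quartile, 3 members fell, where 52.5% of all genes were called. Leaving out 1 library at a time gave 2937 to 3102 genes that rose and 2610 to 2761 that fell, and 0 to 1 members in either direction. The log2 ratio differences then ran 0.11 to 0.19 for Utrn over Dmd, -0.060 to 0.0015 for Dtna over Dmd, 0.46 to 0.59 for Dag1 over Dmd, -0.23 to -0.16 for Sgcb over Sgca, 0.038 to 0.098 for Sgcd over Sgca, 0.32 to 0.60 for Sspn over Sgca. *Utrn* ran -0.073 to 0.017 and was above 0 without wt library 12, and *Drp2* ran -0.16 to 0.039 and was above 0 without wt library 8. Pseudocounts of 1 and 0.01, no filter and robust eBayes left the number of called members as it was, and the 2 pseudocounts also left each of the 6 ratio tests on its side of 0.01. The cause of the scaling-dependent directions was not tested, beyond the shift of the all-gene median given with the scalings.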
